A study of Mus musculus with 12 samples.

Results

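The genes described here encode complement proteins, coagulation factors and plasma protease inhibitors. The set of 51 symbols was listed by name, without a rule on measured values but with earlier results of these data known. Of these, 45 had a probe set annotated to that symbol alone, out of 18193 genes so named on the array, and the brightest such probe set on average stands for each gene. C3, C4b, Serpina1a, Serpina1e and Serpina3k had no such probe set and were not analysed here. C1s had none under that symbol, and the values of its current symbol, C1s1, are given apart from the 45. The signals came from livers of C57BL/6J mice at 30 weeks of age, in 4 groups of 3 arrays. Control females and control males drank water. LDC (low-dose cadmium) females and males were born to dams that drank 100 nM cadmium chloride from 1 week before mating, and after weaning they drank it themselves until their livers were taken. GEO's labels describe arrays of the same group as biological replicates. Which mice shared a litter or cage was not stated in the labels or methods, so the p-values measure the spread between these arrays as if the mice were independent.

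The liver makes most of the complement, clotting and antiprotease proteins of plasma, and hepatocytes are their main source. Complement is started by antibody, by lectins that bind sugars on microbes or by spontaneous turnover, and its late components assemble a pore in the target membrane. Coagulation is a chain of proteases that ends with the conversion of fibrinogen to fibrin, and serpins and inter-alpha-inhibitor proteins hold these and other proteases in check. Many of these genes belong to the acute phase response, and several are known to differ between male and female rodent liver.

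Each value is a MAS 5.0 signal, the brightness of a probe set on a linear scale after each array was scaled to a common trimmed mean. A log2 difference of 1 stands for a doubling of that signal. All 45 probe sets passed the filter on low signal, and their mean signals lay at or above percentile 91.7 of the array, where Pros1 was lowest with a mean of 2029. Fgb, Fgg and Hpx had the highest mean signals. Signals of different probe sets do not compare amounts of RNA between genes. The spread between arrays of a group was small for these genes, with a median SD of 0.112 on the log2 scale against 0.343 over all 27022 probe sets tested. Serpinc1, which encodes antithrombin, varied least (SD 0.0447 on the log2 scale) and C6 varied most (SD 0.360). Of 6 hepatocyte markers, 5 were named on the array, all 5 passed the filter and none passed the test in any of the 6 comparisons, and their summed signal ran from 237615 to 290337 over the 12 arrays. The RNA came from whole liver, in which fewer cells of a type and less RNA per cell cannot be told apart.

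The comparison of LDC with control mice asks whether lifelong low-dose cadmium was accompanied by altered expression in each sex, and the difference of these effects asks whether the sexes differed. In males, 0 of the 45 genes passed an adjusted p of 0.05 in limma, where 0.278% of all probe sets did. In females, 1 gene passed, Itih3, and it was lower in LDC mice, where 0.122% of all probe sets passed and 0.0962% passed in the lower direction. None passed for the difference of the effects between the sexes, where 0.178% of all probe sets did, or for the mean effect over both sexes, where 0.0444% did. The median log2 difference of the 45 genes was -0.01 in males, where the median over all probe sets was 0.00, and -0.08 in females, where that over all probe sets was 0.01. At an unadjusted p under 0.05, limma gave 5 genes in males (11.1% of 45, against 10.2% of all probe sets) and 15 in females (33.3%, against 9.01%). Of those 15, 14 were lower in LDC females, against 4.33% of all probe sets in that direction. The same count was 8 for the difference (17.8%, against 10.3% of all probe sets) and 11 for the mean effect (24.4%, against 9.28%). Regardless of sign, the median log2 difference of the 45 genes was 0.12 in females, against 0.23 over all probe sets. In males it was 0.07 against 0.23. The median SE was 0.095 for the 45 genes in each sex, against 0.286 over all probe sets. Smaller differences could thus pass for these genes, and the shares do not compare the size of change.

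The arrays of the LDC and control groups did not overlap for 11 of 45 genes in males (24.4%, against 16.5% of all probe sets) and for 14 in females (31.1%, against 13.9%). In females, 13 of these 14 genes had every LDC array below every control array, which 6.71% of all probe sets had. Among the control females, replicate 3 was the highest array for 24 of the 45 genes and replicate 1 the lowest for 30. Among the LDC females, replicate 3 was likewise the highest for 23 genes and replicate 1 the lowest for 27. Without control female 3, the median log2 difference of the 45 genes in females was -0.03 in place of -0.08, and 0 genes were called. Without control female 1, 2 genes were called in females in place of 1. The medians without the other arrays are not given here. At the study's criterion, a 2-fold or larger change with an unadjusted p under 0.05, 0 of 45 genes were counted in either sex, against 3% of all probe sets in males and 2.18% in females. Here the p-values came from limma on probe sets, while the study counted genes and its methods do not name its array test.

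**Figure D1:**
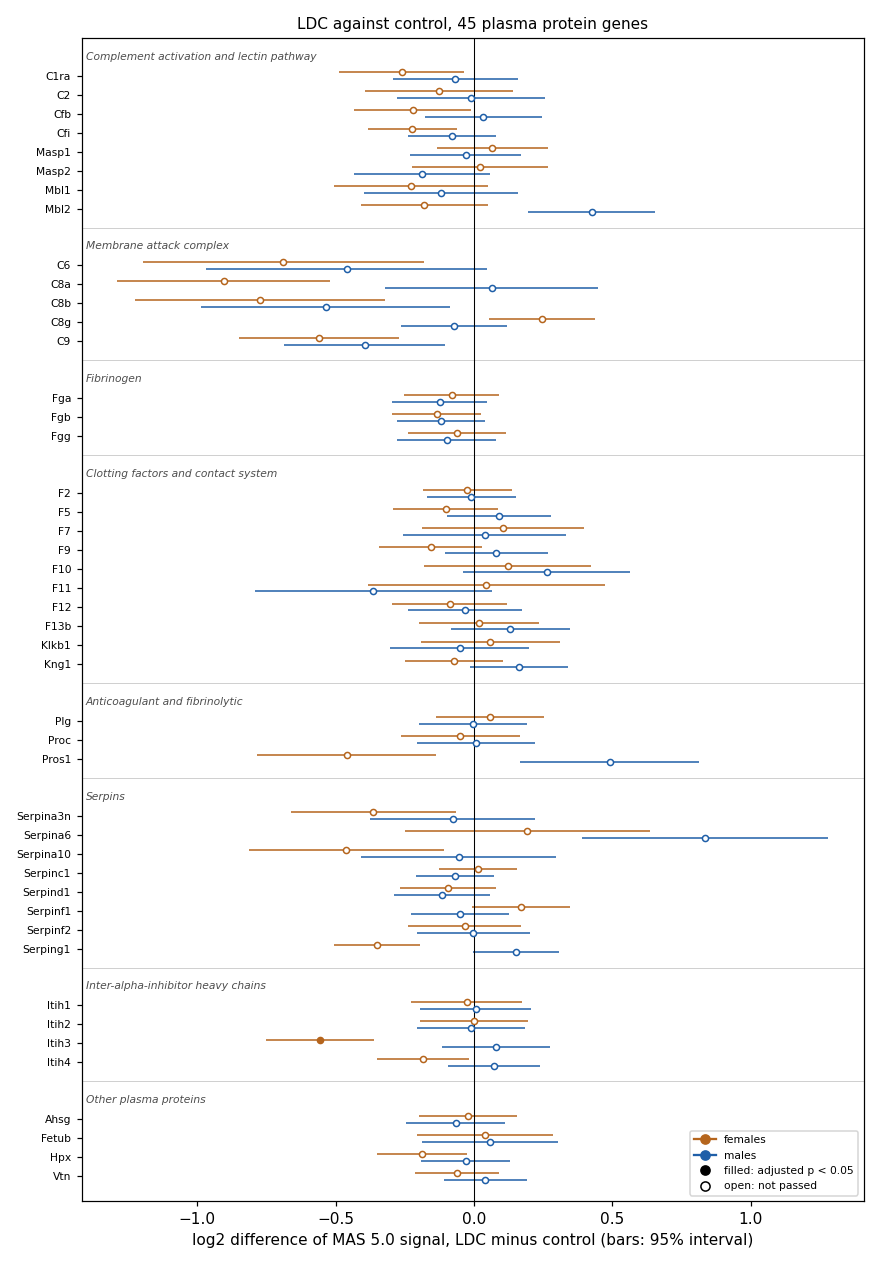
The log2 difference of MAS 5.0 signal, LDC minus control, on the horizontal axis for each of the 45 genes, grouped by role, in females (brown) and males (blue); points are limma estimates from 3 arrays per group, bars are 95% intervals, and a filled point passed an adjusted p of 0.05. Itih3 in females is the filled point, and Serpina6 in males and C8a in females lie farthest from 0.

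The comparison of males with females within each exposure group asks which of these genes differed by sex. Between control males and control females, 12 of 45 genes passed (26.7%, against 7.73% of all probe sets). Of these, 5 were higher in males, where 3.59% of all probe sets were called higher, and 7 were lower, where 4.14% were called lower. Between LDC males and LDC females, 7 of 45 genes passed (15.6%, against 6.29% of all probe sets), 6 of them higher in males (3% of all probe sets) and 1 lower (3.29%). At an unadjusted p under 0.05 the count was 18 in control mice (40%, against 21.5% of all probe sets) and 18 in LDC mice (40%, against 18.9%). Male and female arrays did not overlap for 20 genes in control mice (44.4%, against 24.5%) and 21 in LDC mice (46.7%, against 26.9%). Regardless of sign, the median log2 difference of the 45 genes was 0.21 in control mice, against 0.32 over all probe sets. In LDC mice it was 0.10 against 0.30, so these shares again do not compare the size of change. The study's criterion counted 3 genes in control mice, where it counted 6.94% of all probe sets, and 3 in LDC mice, where it counted 5.38%. With eBayes run without a trend in the variance, 3 of 45 genes passed in control mice (C6, Mbl2 and Serpina6) and 3 in LDC mice (C6, C8a and C8b), and in the fit of the control arrays alone 4 passed. Only these calls, 3 in each exposure group, held under every alternative that kept the adjusted p. The comparisons share arrays with each other, since each group of 3 enters several of them.

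**Figure D2:**
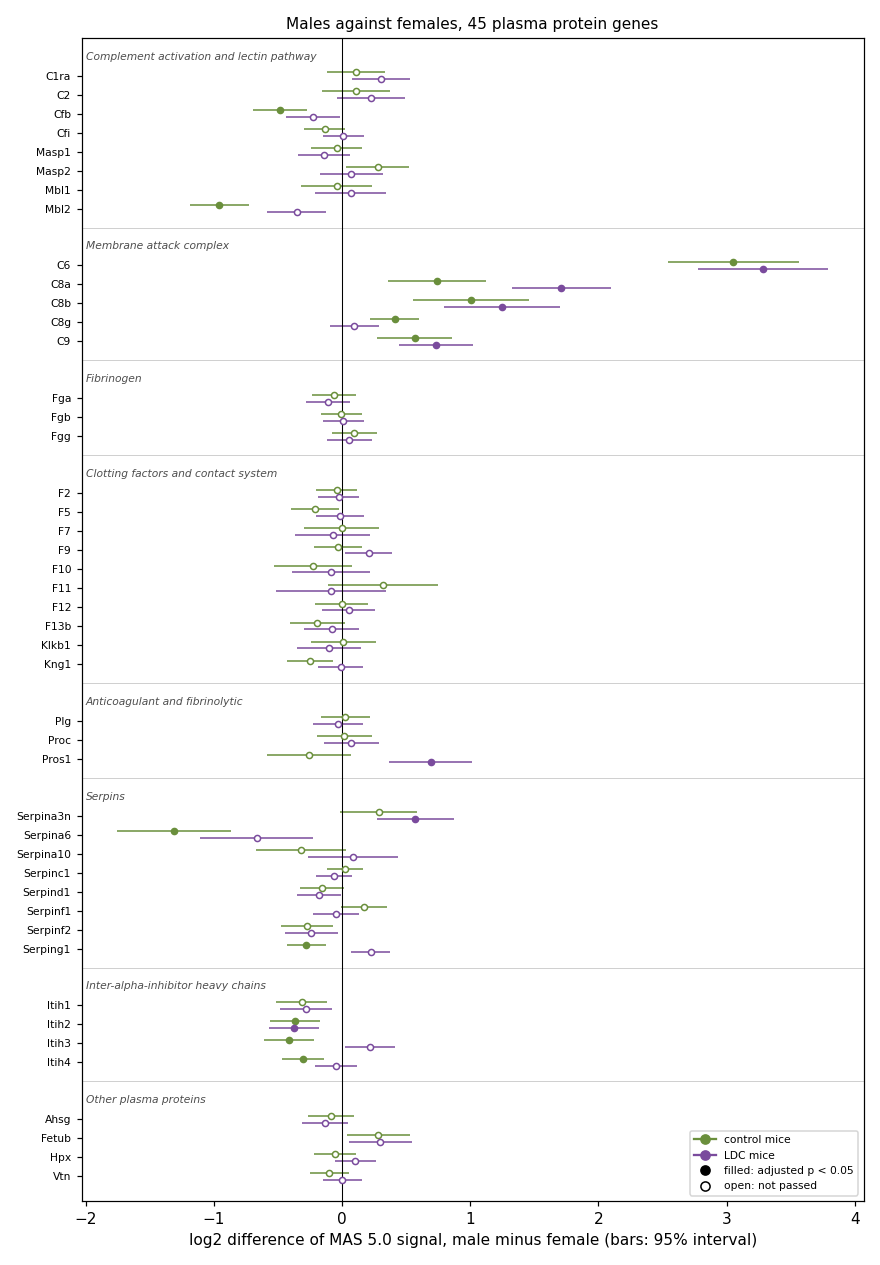
The log2 difference of MAS 5.0 signal, male minus female, on the horizontal axis for each of the 45 genes, grouped by role, in control mice (green) and LDC mice (purple); points are limma estimates from 3 arrays per group, bars are 95% intervals, and a filled point passed an adjusted p of 0.05. C6 stands apart with a log2 difference above 3 in both. The fibrinogen and clotting factor genes have open points, which reach from -0.25 (Kng1) to 0.32 (F11) in control mice.

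The membrane attack complex is the pore of complement, in which C6 joins C5b, the alpha, beta and gamma chains of C8 follow (C8a, C8b and C8g), and copies of C9 close the ring. All 5 genes passed as higher in control males than in control females. In LDC mice all 5 again had every male array above every female array, and 4 of the 5, all but C8g, passed. In the LDC comparison none of the 5 passed in either sex. Values of the 3 arrays of a group are given in the order of their replicate numbers, which rank nothing. C6 measured 937, 668 and 838 in control females and 701, 562 and 318 in LDC females. It measured 5258, 7069 and 8069.7 in control males and 5169, 4966 and 4496 in LDC males. Every male array stood above every female array, and every LDC male lay below every control male, while the female groups overlapped. C6 was 8.3-fold higher in control males than in control females (log2 difference 3.05, SE 0.24, limma adjusted p = 2.56e-06) and 9.73-fold higher in LDC mice (log2 difference 3.28, adjusted p = 1.72e-06). Its log2 difference between LDC and control was -0.69 in females (adjusted p = 0.392) and -0.46 in males (adjusted p = 0.538).

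C8a, the chain that inserts into the membrane, measured 10303, 13653 and 18189 in control females, 8048, 5968 and 8131 in LDC females, 18519, 25164 and 25665 in control males and 23659.6, 24243 and 23864 in LDC males. Every LDC female lay below every control female and every male above every female. The male excess was 1.67-fold in control mice (log2 difference 0.74, adjusted p = 0.0209) and 3.27-fold in LDC mice (log2 difference 1.71, adjusted p = 4.73e-05). In the LDC comparison C8a had a log2 difference of -0.90 in females (95% interval -1.29 to -0.52, adjusted p = 0.0882) and 0.06 in males (95% interval -0.32 to 0.45). The difference between these effects was 0.97 on the log2 scale and did not pass (adjusted p = 0.191). Without control female 1, which was the lowest control female, the female value passed with an adjusted p of 0.0125. Over all alternatives the adjusted p of the female value reached 0.374. The male excess in control mice was no longer called without control female 1, control male 2 or control male 3 (adjusted p up to 0.0826).

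C8b, the chain through which C8 binds the complex, measured 2941, 3864 and 5572 in control females, 2209.8, 2089.5 and 2747 in LDC females, 5980.1, 8604 and 10010.4 in control males and 5983, 5555 and 5083 in LDC males. Control male 1 and LDC male 1 were almost level, so the male groups overlapped, while LDC females lay below control females. C8b was 2.01-fold higher in males among control mice (adjusted p = 0.00892) and 2.37-fold higher among LDC mice (adjusted p = 0.00213). Its log2 differences between LDC and control were -0.77 in females and -0.54 in males, and their mean of -0.65 did not pass (adjusted p = 0.142). That mean passed only without control female 1 (adjusted p = 0.0497), which was the lowest control female, and its adjusted p reached 0.436 over all alternatives. C8a and C8b are neighbours on chromosome 4 with 0 protein-coding genes between them.

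C9, the subunit that polymerises into the pore, measured 19042, 13561 and 21843.5 in control females, 12132, 11817 and 12280.4 in LDC females, 24153, 28289.9 and 26795 in control males and 22056, 19480.3 and 18758 in LDC males. In each sex every LDC array lay below every control array. The mean LDC effect over both sexes was a log2 difference of -0.48 (SE 0.10, 95% interval -0.68 to -0.27) with an adjusted p of 0.0998, which did not pass. It passed without control female 2 (adjusted p = 0.00403), which was the lowest control female, and C9 was then also called in females. Over all alternatives the adjusted p of the mean effect reached 0.399. C9 was 1.48-fold higher in males among control mice (adjusted p = 0.0197) and 1.66-fold higher among LDC mice (adjusted p = 0.00427). The call in control mice was lost without control male 2 or control male 3 (adjusted p up to 0.0788).

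C8g, whose lipocalin-type chain is joined to the C8 alpha chain, went the other way in females, with 13117, 16977 and 15831 in control females and 18256, 17493 and 18400.3 in LDC females. All LDC females were above all control females, at a log2 difference of 0.25 that did not pass (adjusted p = 0.417). Males measured 20516, 20596 and 19617.5 in the control group and 18602, 19868 and 19344 in the LDC group, which overlapped. The male excess of C8g was 1.33-fold in control mice (adjusted p = 0.0114) and was not called when each array was centred on its median. It was 1.07-fold in LDC mice (95% interval of the log2 difference -0.10 to 0.29, adjusted p = 0.639).

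**Figure D3:**
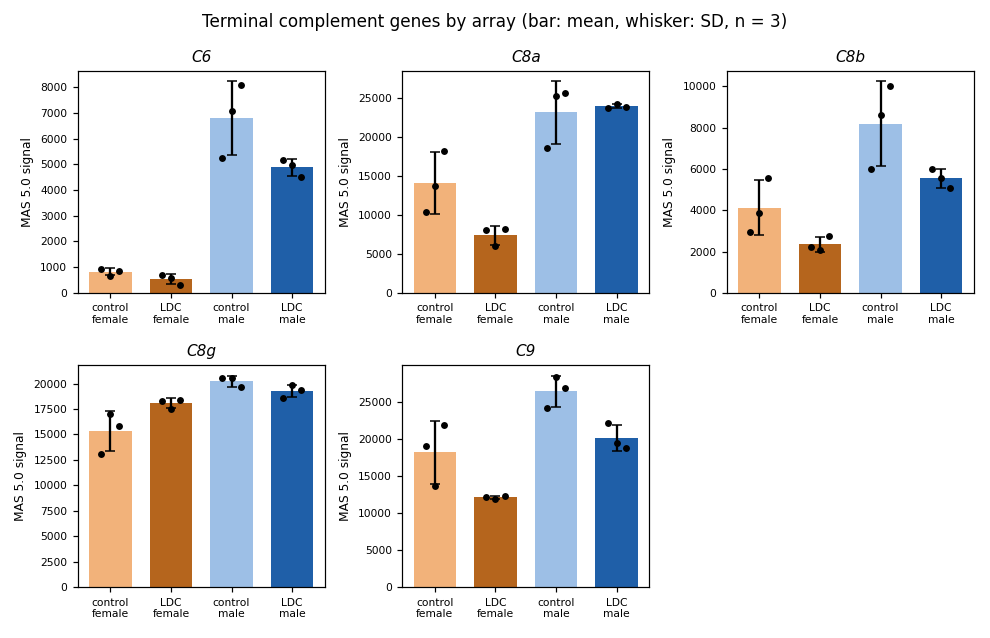
MAS 5.0 signal of the terminal complement genes C6, C8a, C8b, C8g and C9 on linear vertical axes that start at 0, by group; bars are means, whiskers SD and points the 3 arrays of a group. Male arrays of C6 lie between 4496 and 8069.7 and female arrays between 318 and 937, and LDC arrays of C9 lie below the control arrays of the same sex.

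The bases upstream of the members with large sex differences are shown because these genes were called between control males and control females. They are RefSeq sequences of build GRCm38.p6, 5′ to 3′ on the strand of the gene, taken from the 250 bases before the listed start and cut to the stretch outside every annotated gene. Capitals mark matches to any of 4 motifs of liver promoters searched on both strands, which are C/EBP (TTGCNNAA), STAT (TTCNNNGAA), a partial HNF1 site (GTTAAT, 1 arm of the full site) and the TATA box (TATAAA). The C6 stretch is chr15:4726960-4727066, C8b chr4:104766067-104766316, C9 chr15:6445096-6445345 and Mbl2 chr19:30232678-30232905, all on the plus strand.
C6: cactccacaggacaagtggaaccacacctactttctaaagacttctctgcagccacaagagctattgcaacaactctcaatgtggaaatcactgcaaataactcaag
C8b: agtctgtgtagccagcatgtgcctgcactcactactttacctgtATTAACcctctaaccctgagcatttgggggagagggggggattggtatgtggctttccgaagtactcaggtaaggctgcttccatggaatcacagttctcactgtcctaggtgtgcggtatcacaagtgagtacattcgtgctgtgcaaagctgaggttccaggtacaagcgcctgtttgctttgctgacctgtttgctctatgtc
C9: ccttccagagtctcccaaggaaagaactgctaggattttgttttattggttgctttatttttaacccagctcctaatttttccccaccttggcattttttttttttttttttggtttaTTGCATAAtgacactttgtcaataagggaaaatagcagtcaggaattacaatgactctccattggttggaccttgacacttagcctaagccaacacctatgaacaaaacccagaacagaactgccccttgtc
Mbl2: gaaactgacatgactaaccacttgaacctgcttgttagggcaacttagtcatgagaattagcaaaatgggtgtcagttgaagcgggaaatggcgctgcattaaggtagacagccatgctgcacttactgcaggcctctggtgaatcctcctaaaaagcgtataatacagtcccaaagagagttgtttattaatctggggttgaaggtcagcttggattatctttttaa

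C8b held the partial HNF1 site on the minus strand from position -206, counted from the base before the start as -1, and C9 held a C/EBP motif on the plus strand from position -132. C8a, whose window overlaps an annotated gene and is not shown, held a STAT motif from position -228 and the partial HNF1 site from position -107. The windows of C6, C8g, Mbl2 and Itih3 held none of the 4. Each search covered all 250 bases, parts of which lie inside annotated genes for C6, Mbl2 and Itih3. Their longest stretches outside every annotated gene were 107 bases for C6, 228 for Mbl2 and 50 for Itih3. For 35 of the 45 genes the first listed promoter was searched, while the shares over all promoters count every listed one. Among the 35 genes, 9 held the C/EBP motif (25.7%, against 9.56% of all 32851 promoters), 7 the STAT motif (20%, against 7.02%), 8 the partial HNF1 site (22.9%, against 6.43%) and 3 the TATA box (8.57%, against 12.4%). Matches of different motifs did not overlap each other in these genes. The matches describe the letters only and were not tested for binding.

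Among the early complement and lectin pathway genes, 8 were measured, and in the LDC comparison none passed in either sex. Mbl2, a mannose-binding lectin that starts the lectin pathway, had the largest sex difference of this group. It measured 25121, 24531 and 24792 in control females and 20227, 21673 and 24026 in LDC females. It measured 14178.5, 13589.6 and 10799 in control males and 17644, 15322 and 18623.5 in LDC males. LDC females lay below control females, LDC males above control males, and all males below all females. Mbl2 was 1.94-fold lower in control males than in control females (log2 difference -0.96, SE 0.11, adjusted p = 8.26e-05). In LDC mice the log2 difference was -0.35 and did not pass (adjusted p = 0.0683). The LDC effect was 0.42 in males (adjusted p = 0.147) and -0.18 in females (adjusted p = 0.666), and the difference between them, 0.60, did not pass (adjusted p = 0.171). The sex difference in LDC mice passed under quantile normalization, with a filter at the 60th percentile, in the fit of those 2 groups alone and without control male 3, with adjusted p between 0.0307 and 0.250 over all alternatives. Mbl1, the related lectin, had log2 differences of -0.04 between the sexes in control mice and -0.23 for LDC in females, neither of which passed, and cross-hybridization between such relatives was not tested.

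Cfb, complement factor B of the alternative pathway, measured 12102, 10764 and 13119 in control females, 10577, 10588 and 9635 in LDC females, 8573, 9121 and 7971 in control males and 9544, 7885 and 8898 in LDC males. The LDC females lay below all control females and above all males. Cfb was 1.4-fold lower in control males than in control females (adjusted p = 0.00755), and the log2 difference of -0.23 in LDC mice did not pass (adjusted p = 0.22). C2, its neighbour on chromosome 17 with 0 protein-coding genes between, had a log2 difference of 0.11 between the sexes in control mice (adjusted p = 0.667). C1ra, a protease of the C1 complex, and Cfi, which cleaves C3b and C4b, each had every LDC female below every control female. Their log2 differences in females were -0.26 (adjusted p = 0.482) and -0.22 (adjusted p = 0.372). Masp1 and Masp2, the proteases carried by mannose-binding lectins, had log2 differences between -0.19 and 0.07 for LDC over both sexes in their brightest probe sets. A dimmer probe set of Masp2 had 0.14 in males where the brightest had -0.19. For Masp1, a dimmer probe set had -0.23 in females where the brightest had 0.07, and neither dimmer value passed. Another dimmer probe set of Masp1 was called lower in control males (log2 difference -0.81, adjusted p = 0.0128) where the brightest had -0.04, so the probe sets of this gene disagreed. C1s1, the current symbol of C1s, had a log2 difference of 0.04 in males (adjusted p = 0.929) and -0.06 in females (adjusted p = 0.886).

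The inter-alpha-inhibitor heavy chains bind hyaluronan and stabilise the extracellular matrix, and Itih4 is a related acute phase protein. Itih3 fell in LDC females. It measured 25277.5, 27660.1 and 30329 in control females and 19864, 18727 and 17950 in LDC females, so that the groups were separated by more than either spanned. Control males measured 18990.5, 20587 and 22983 and LDC males 23086, 20769.8 and 22073, which overlapped. The decrease in females was 1.47-fold (log2 difference -0.56, SE 0.09, 95% interval -0.75 to -0.36, limma adjusted p = 0.0282). In males the log2 difference was 0.08 (95% interval -0.12 to 0.27), and the difference between the sexes in this effect was 0.63 with an adjusted p of 0.0751, which did not pass. The call in females was lost in 10 of 21 alternatives, with adjusted p from 0.0151 to 0.303 over all of them. They included the fit without control female 3, LDC female 1, LDC female 2, LDC female 3, control male 2 or LDC male 3, where the adjusted p reached 0.180, as well as median centring, eBayes without a trend, the replicate block and the fit of the female arrays alone. The part of its upstream window that lies outside every annotated gene, from the same source and on the minus strand at chr14:30923788-30923837, is shown because Itih3 is the gene called for LDC.
Itih3: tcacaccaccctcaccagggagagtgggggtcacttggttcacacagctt

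All 4 heavy chain genes had lower signal in control males than in control females, with log2 differences between -0.41 and -0.30, and 3 of them passed. Itih2 measured 20359, 22554 and 22781 in control females, 19585, 22724 and 23511 in LDC females, 18242, 15277 and 17567 in control males and 16853, 16815 and 16873 in LDC males. The female groups were level with each other and above both male groups. Its log2 difference between the sexes was -0.37 in control mice (adjusted p = 0.0239) and -0.38 in LDC mice (adjusted p = 0.0223), and that between LDC and control was 0.00 in females (95% interval -0.19 to 0.19). The call in control mice was lost without control female 2, control female 3 or control male 2 (adjusted p up to 0.103), and that in LDC mice without LDC female 2, LDC female 3 or any of the LDC males (adjusted p up to 0.101). Itih4 measured 40033, 41053 and 47287 in control females, 35208, 39429 and 38286 in LDC females, 33618, 34849.9 and 35297 in control males and 37415, 35852 and 35906 in LDC males. Its sex difference of -0.30 in control mice passed (adjusted p = 0.0276) and that of -0.05 in LDC mice did not (adjusted p = 0.815). The call was lost with no filter and without control female 3 or any of the control males (adjusted p up to 0.0934). Itih1 had -0.31 in control mice (adjusted p = 0.0553) and -0.28 in LDC mice (adjusted p = 0.0972). Itih1, Itih3 and Itih4 lie next to each other on chromosome 14, and Itih2 lies elsewhere.

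Serpins trap the proteases they inhibit, and 8 of them were measured. Serpina6 encodes corticosteroid-binding globulin, a hormone carrier without inhibitory activity. It measured 15420, 12187 and 9889 in control females and 10432, 16234 and 16405 in LDC females. It measured 5905, 5674 and 3644 in control males and 8904, 7972 and 9774 in LDC males. All LDC males were above all control males and below all females, and the female groups overlapped widely. Serpina6 was 2.48-fold lower in control males than in control females (log2 difference -1.31, SE 0.21, adjusted p = 0.00132). In LDC mice the log2 difference was -0.67 (adjusted p = 0.0748), which passed without LDC female 1, without control male 3 and in the fit of those 2 groups alone (adjusted p between 0.0235 and 0.0395). The LDC effect in males was a log2 difference of 0.84 (95% interval 0.39 to 1.28, adjusted p = 0.14), the farthest from 0 of the 45 genes in males, and it did not pass.

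Serping1, the C1 inhibitor, restrains C1, the mannose-binding lectin proteases, kallikrein and factor XII. It measured 32988, 30035.5 and 32570 in control females, 24539, 24119.8 and 26356 in LDC females, 26935, 26529.6 and 25343 in control males and 30435, 27920.2 and 29187 in LDC males. LDC females lay below control females and LDC males above control males, with no overlap in either sex. The log2 difference for LDC was -0.35 in females (SE 0.07, adjusted p = 0.107) and 0.15 in males (adjusted p = 0.501), and the difference between these, 0.50, had an adjusted p of 0.0774. Control males were 1.21-fold lower than control females (adjusted p = 0.0299), while LDC males were 1.17-fold above LDC females in the means, which did not pass (adjusted p = 0.0887). The call in control mice was lost with median centring, with no filter and without control female 1, control female 3, control male 2 or control male 3 (adjusted p up to 0.1).

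Serpina3n, an acute phase inhibitor with close relatives in the mouse genome, measured 3366, 3669 and 3516 in control females, 2403, 2925 and 2901 in LDC females, 3595, 5250.2 and 4164 in control males and 4505, 4257 and 3494 in LDC males. LDC females were the lowest group and did not overlap with any other. Serpina3n was 1.49-fold higher in LDC males than in LDC females (adjusted p = 0.0235), a value that is uncertain where relatives share probes. That call was lost with median centring and without LDC female 1, LDC male 1 or LDC male 2 (adjusted p up to 0.105). Serpina10, the inhibitor of factor X that acts with protein Z, had a log2 difference of -0.46 for LDC in females (95% interval -0.81 to -0.11, adjusted p = 0.414), with every LDC female below every control female. Serpinf1, which encodes the angiogenesis inhibitor PEDF, measured 19382, 19719.6 and 20429.5 in control females, 19985, 24041 and 23142 in LDC females, 21343, 23826 and 21911 in control males and 22617, 21284 and 20883 in LDC males. The groups overlapped in each sex, and its log2 difference of 0.17 in females did not pass (adjusted p = 0.573). Antithrombin (Serpinc1), heparin cofactor II (Serpind1) and alpha-2-antiplasmin (Serpinf2) had log2 differences for LDC between -0.12 and 0.02 over both sexes, and none passed.

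**Figure D4:**
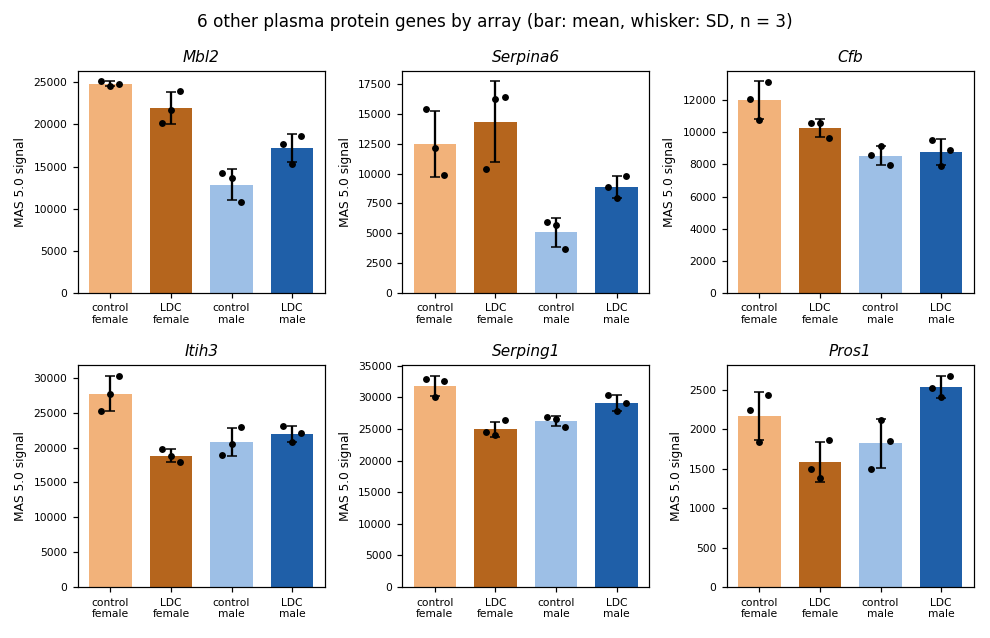
MAS 5.0 signal of Mbl2, Serpina6, Cfb, Itih3, Serping1 and Pros1 on linear vertical axes that start at 0, by group; bars are means, whiskers SD and points the 3 arrays of a group. LDC females lie below control females for Itih3 and Serping1, and LDC males lie above control males for Mbl2, Serpina6, Serping1 and Pros1.

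Fibrinogen is made of 3 chains encoded by the neighbouring genes Fga, Fgb and Fgg on chromosome 3. Over the 12 arrays Fga ran from 34381 to 43784, Fgb from 47312 to 58899.5 and Fgg from 36134.5 to 45829. None of the 3 passed in any comparison. The log2 differences for LDC were -0.12, -0.12 and -0.10 in males and -0.08, -0.13 and -0.06 in females, for Fga, Fgb and Fgg in that order. The 95% intervals of these 6 values all lay between -0.29 and 0.12 on the log2 scale, so differences beyond that range were not seen at this precision.

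The 10 clotting factor and contact system genes did not pass in any comparison. Prothrombin (F2), whose product cleaves fibrinogen, ran from 30428 to 35323 over the 12 arrays, with log2 differences for LDC of -0.01 in males and -0.02 in females. The LDC differences of the 10 genes lay between -0.36 (F11) and 0.26 (F10) in males and between -0.16 (F9) and 0.12 (F10) in females. F10, which encodes the protease that activates prothrombin, measured 8532, 10743 and 10249 in control females, 10844, 11160.2 and 10004 in LDC females, 8954, 7348 and 8893 in control males and 8525, 12903 and 9178 in LDC males. LDC male 2 was the highest array, and the male groups overlapped. Its other 2 probe sets had log2 differences of -0.03 and -0.10 in males, so they did not share the sign of the brightest. F11, which encodes factor XI, measured 2085, 3983 and 3351 in control females, 2966, 2931 and 3519.8 in LDC females, 3933.5, 3737 and 3698 in control males and 2473, 3799.7 and 2720.4 in LDC males, with overlapping groups in each sex. Its 95% interval for LDC in males reached from -0.79 to 0.07, the widest of the 10. Kng1, the precursor of bradykinin, had a log2 difference of -0.25 between the sexes in control mice (adjusted p = 0.0862). That value is uncertain where its close relative Kng2 shares probes. F5, F13b and Kng1 had all control males below all control females. A dimmer probe set of F5 had a log2 difference of 0.07 between the sexes in control mice, where the brightest had -0.21.

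Pros1 encodes protein S, the cofactor of activated protein C and of the tissue factor pathway inhibitor. It measured 2240.3, 1842 and 2434 in control females, 1497, 1383 and 1866 in LDC females, 1499, 2122 and 1848 in control males and 2519, 2413 and 2681 in LDC males. LDC males were above all control males, and the female groups overlapped only through LDC female 3 and control female 2. Pros1 was 1.62-fold higher in LDC males than in LDC females (log2 difference 0.69, SE 0.15, adjusted p = 0.013), and the comparison of control males with control females did not pass (log2 difference -0.26, 95% interval -0.58 to 0.07). The call was lost without LDC female 1, LDC female 2 or LDC male 3 (adjusted p up to 0.0685). The LDC effect was 0.49 in males (adjusted p = 0.266) and -0.46 in females (adjusted p = 0.354), and the difference between them, 0.95, did not pass (adjusted p = 0.119). Proc, which encodes protein C, and Plg, which encodes plasminogen, had log2 differences for LDC between -0.05 and 0.06 over both sexes, with no gene called.

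The other plasma proteins were the fetuins Ahsg and Fetub, the heme carrier hemopexin (Hpx) and vitronectin (Vtn), an adhesion protein that also binds the forming attack complex. None of the 4 passed in any comparison. Hpx had every LDC female below every control female, at a log2 difference of -0.19 (adjusted p = 0.478). Fetub had every male above every female in both exposure groups, with log2 differences of 0.28 in control mice (adjusted p = 0.167) and 0.30 in LDC mice (adjusted p = 0.159). For 44 of the 45 genes in males and 42 in females, the 95% interval of the LDC effect lay within a 2-fold change in either direction. The exceptions were Serpina6 in males and C6, C8a and C8b in females.

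Further genes of these pathways, listed from general knowledge and not among the 45, were counted in the same fit. Of 22 other complement genes, listed as made elsewhere or regulatory, 18 were tested, and 0 passed in the LDC comparison of either sex. Of the 18, 17 had a negative log2 difference in females and 11 a positive one in males. Over all probe sets, 50.7% had a positive one in females and 50.1% in males. Vsig4 of this list is also counted among the Kupffer cell markers below. Colec11, a collectin of the lectin pathway, was the gene of these 18 that passed between control males and control females (log2 difference -0.78, adjusted p = 0.00571). Of 23 other coagulation and fibrinolysis genes, 20 were tested, and 0 passed in the LDC comparison of either sex. Hgfac, the protease that activates hepatocyte growth factor, was lower in males in control mice (-0.45, adjusted p = 0.0251) and in LDC mice (-0.41, adjusted p = 0.0483). Among 11 other inhibitor genes tested, Serpina7, which encodes thyroxine-binding globulin, fell in LDC females (log2 difference -1.47, adjusted p = 0.0248) and was higher in LDC males than in LDC females (1.96, adjusted p = 0.000141). Mug1, a murinoglobulin protease inhibitor, and Serpina12, the adipokine vaspin, were higher in control males than in control females (log2 differences 0.52 and 2.87).

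Of 14 regulators tested, 0 passed in the LDC comparison. Between control males and control females 5 were called higher in males (3.59% of all probe sets), namely Il6ra, Cebpa, Cebpb, Cebpd and Hnf4a. Il6ra, the receptor chain for interleukin 6, had the largest of these log2 differences (1.12, adjusted p = 0.00635), and it had 1.94 in LDC mice (adjusted p = 8.87e-05). The C/EBP factors Cebpb and Cebpd had 0.71 and 0.91 in control mice and 1.31 and 1.49 in LDC mice, all of which passed. Cebpa and Hnf4a had 0.46 and 0.37 in control mice, and in LDC mice -0.08 (adjusted p = 0.715) and 0.22 (adjusted p = 0.293), which did not pass. Between LDC males and LDC females 4 of the 14 were called higher in males, against 3% of all probe sets. Il6st was among these (0.43, adjusted p = 0.0338), and it had -0.09 in control mice (adjusted p = 0.720).

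Markers of other cell types moved in the same comparisons. Of 8 neutrophil markers, 5 were tested, and S100a8, S100a9 and Ngp fell in LDC females while S100a8 rose in LDC males. The summed neutrophil signal was 3277 to 6035 in the control and 740 to 1084 in the LDC arrays of females. In males it was 1209.7 to 1719 in the control and 3203 to 3605 in the LDC arrays. S100a8, S100a9 and Ngp were also lower in control males than in control females and higher in LDC males than in LDC females. Of 5 lymphocyte and plasma cell markers, 3 were tested, and Jchain and Ighm fell in LDC females, where the summed signal ran from 716 to 1760.2 against 4225 to 11731 in control females and, in males, 3352 to 4145 in the control and 3754 to 5907 in the LDC group. All 8 markers of Kupffer cells and macrophages had negative log2 differences in LDC females and positive ones in LDC males, and 0 passed. Summed, they gave 15858 to 40740.3 in the control and 6621 to 30423 in the LDC arrays of females, which overlapped. In males they gave 13140.1 to 13470.4 in the control and 19351 to 26778 in the LDC arrays. Between the sexes all 8 had negative log2 differences in control males and positive ones in LDC males, and 0 passed. Of the markers of further cell types, Lrat of stellate cells (log2 difference -0.98, adjusted p = 0.00175) and Epcam of bile duct cells (-2.24, adjusted p = 0.0361) were lower in control males than in control females. Sox9, the other bile duct marker tested, had -0.74 and did not pass (adjusted p = 0.440). Krt19 and Krt7 of bile duct cells did not pass the filter on low signal, and their means were higher in control males than in control females. Cela1 of pancreatic acinar cells (1.09, adjusted p = 0.00421) and Alas2 of red blood cells (2.88, adjusted p = 2.52e-06) were higher in control males than in control females. Alas2 was also higher in LDC males than in LDC females (1.99, adjusted p = 8.15e-05). Each was the only tested marker of its list, since Cpa1 of acinar cells and Hba-a1 of red blood cells did not pass the filter. Jchain and Ighm were higher in LDC males than in LDC females as well (2.09 and 2.84). None of 5 endothelial markers passed in any comparison between exposure groups or sexes. Among the neutrophil markers Camp, Elane and Mmp8 did not pass the filter on low signal, nor did Cd3e and Cd79a among the lymphocyte markers. Itih3, Serping1, Pros1 and Mbl2 had negative log2 differences in LDC females and positive ones in LDC males. The same signs were found for C8a, Cfb, F5, F9, Proc, Kng1, Itih1, Itih4 and Vtn, some with differences near 0. The share of all probe sets with these signs was not counted. A link between these genes and the cell markers was not tested, nor was the part of these other cells in the sex differences.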

How the data were processed

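Total RNA from liver was labelled as cRNA and hybridised to 1-colour Affymetrix mouse arrays. The deposited values are intensities, MAS 5.0 signals that the authors scaled on each array, with a mean after trimming 2% at each end of 500.003 to 500.004. Genes were named through the platform annotation, and a probe set with several symbols named none. The log2 signals were fitted in limma 3.58.1 (R 4.3.3) as 4 group means (lmFit, eBayes with a trend), over 27022 of 45101 probe sets whose mean log2 signal reached the 40th percentile (signal 48.6), with 64 control probe sets left out. Benjamini-Hochberg adjustment ran over all of them, and calls needed an adjusted p under 0.05. The number of arrays, 3 per group, limits the precision. Values of every array are given for genes called in any of the 6 comparisons and for the 3 with the smallest unadjusted p in each direction of each, and the 3 brightest are named. Members and lists were chosen with earlier results of these data known. The script was tested on simulated data. Alternatives covered scaling, filter, pseudocount, variance trend, groups fitted, replicate block and each array left out.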

Additional observations from a re-analysis of the deposited data

How the results depend on the processing

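Over all alternatives no called difference of a named gene turned its direction, and 0 genes were called for LDC in males or for the difference of the LDC effects, male minus female. The call in females went to 0 with median centring, with eBayes without a trend, in the fit of the 2 groups compared, with the replicate block and under the study's 2-fold criterion with an unadjusted limma p. The count in females ran from 0 to 2 when each array was left out. The mean effect gave 0 to 1 genes when each array was left out. Between the sexes, eBayes without a trend gave 3 genes in control and 3 in LDC mice in place of 12 and 7, the 2-fold criterion 3 and 3, and the fit of 2 groups 4 in control mice. Leaving out each array gave 7 to 13 genes in control mice, with 7 without control male 2, and 5 to 9 in LDC mice. Quantile normalization gave 15 and 10. The causes were not tested. Over all probe sets tested, same-numbered arrays had r between -0.03 and 0.06, under the 0.1 set for pairing, so the numbers were not taken to pair the mice. Among the 45 genes, replicate 1 was the lowest female array for most genes in both exposure groups (30 and 27). The replicate block changed no count of genes but that in females. Of the values of single genes under alternatives, 860 kept their direction and side of the threshold, 63 lost a call and 10 gained one. The 860 include many values of genes not called in the main fit, which had no call to lose. These probe sets were bright, and the 3 arrays per group set the precision.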
